A study of Bos indicus with 5 samples.

Results

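The genes described here encode the subunits of the mitochondrial respiratory chain and of ATP synthase, measured by RNA sequencing in the ampulla of Nelore cows. They were chosen by symbol from the deposited table of normalized read counts, with a pattern that takes the NDUF genes of complex I, SDHA to SDHD, the UQCR genes, CYC1, CYCS, the numbered COX genes, the ATP5 genes and the genes of the mitochondrial genome. The rule matched 107 of 24616 genes. Of these, 99 lie in the nuclear genome and 8 in the mitochondrial genome. The pattern also took 9 genes that serve the assembly of complex IV or of larger complexes, and ATP5S and ATP5SL. The other 88 nuclear entries carry symbols of structural subunits in the strict sense, cytochrome c included. Of these entries, 10 share 4 symbols, so the number of distinct subunits is smaller.

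The ampulla is the wide part of the oviduct between the infundibulum, which takes up the oocyte, and the isthmus. All cows were multiparous and healthy, had their cycles synchronized in advance with a prostaglandin F2α (PGF) analogue and a GnRH agonist, and then carried a progesterone-releasing intravaginal device inserted together with an estradiol benzoate injection. PGF was given at device removal and again some hours later, and ovulation was induced with a GnRH agonist. In LF/LCL, the cows with a large follicle and a large corpus luteum, PGF was also given at device insertion and the device was removed 42 h before GnRH. In SF/SCL, the cows with a small follicle and a small corpus luteum, the device was removed 30 h before GnRH. Tissue was taken on day 4 after GnRH across the full thickness of the ampulla on the side of the corpus luteum. There were 2 libraries of LF/LCL and 3 of SF/SCL, each from a different cow, and the cows were selected as those with the most contrasting follicular, luteal and hormonal values, so they stand for the extremes of each group. Per the paper, a further LF/LCL ampulla sample was left out because its library was poor and gave few reads.

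The respiratory chain passes electrons from NADH and succinate to oxygen through complexes I to IV, with ubiquinone and cytochrome c as mobile carriers between them. Complexes I, III and IV move protons out of the matrix, and ATP synthase uses their return to make ATP. Most subunits are encoded in the nucleus, translated in the cytosol and imported, while a small core set comes from mitochondrial DNA. In the oviduct, ciliated cells, secretory cells and the smooth muscle of the wall all draw on this ATP, for ciliary beating, secretion and contraction.

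The libraries held between 13418278 and 19592174 reads assigned to genes, which are the depth behind every value below. A value is a normalized read count, that is the reads of a gene divided by the size factor of its library. Fold changes are log2 ratios of LF/LCL over SF/SCL on log2(value + 1), given with their standard error (SE), and were tested two-sided with limma for the 15815 genes with a mean over 5. Adjusted p-values are Benjamini-Hochberg values over all these genes. With limma 0 of them (0%) had an adjusted p under 0.05, with 11.5% under 0.05 before adjustment (5.64% with LF/LCL higher, 5.86% with SF/SCL higher). DESeq2 on the recovered whole reads had 2.89% with an adjusted p under 0.05. Read counts are not corrected for transcript length, so levels are compared between libraries and not between genes.

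No respiratory chain or ATP synthase transcript passed the adjusted test between the LF/LCL and SF/SCL ampulla, and most differences were small. Of the 107 genes, 98 passed the mean of 5, all of them nuclear. After adjustment 0 of the 98 stayed under 0.05, whether with limma, with the edgeR quasi-likelihood test or with DESeq2. Over all 15815 genes tested limma also gave 0, so its 0 here is not particular to these genes. DESeq2 gave 2.89% of all genes tested, and the edgeR share over all genes was not counted. Before adjustment, limma gave a p under 0.05 for 3 genes (ATP5F1 and COX7A1, higher in LF/LCL, and ATP5S, higher in SF/SCL), edgeR for 2 (ATP5S and COX7A1) and DESeq2 for the same 3 as limma, beside 11.5% of all genes tested with limma. The median log2 fold change over the 87 structural subunit entries that passed was 0.025, beside 0.0054 over all genes tested. By sign, 60 of the 98 genes were higher in LF/LCL and 38 were lower, while 50.8% of all genes tested were higher in LF/LCL.

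The precision of these near-zero differences can be read from their intervals. The 95% interval of the fold change lay within 1.5-fold in either direction for 73 of the 98 genes, and for 36.8% of all genes tested. Genes with a mean of at least 100 gave the same 73 of 88, and 48.7% of all genes tested at that level. For the other genes the interval reached beyond 1.5-fold, so a difference of that size cannot be set aside at this depth and number of cows. With only one LF/LCL library the count was 47, whichever of them was left out. Over the 5 libraries the median SD of log2 values was 0.138 for the structural subunits and 0.253 for all genes tested. At a mean of at least 100 it was 0.134 for 88 of the genes and 0.197 for all.

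With LF/LCL higher, these genes separated the groups in every library about as often as all genes tested. All LF/LCL values exceeded all SF/SCL values for 14 of the 98 genes, beside 15.0% of all genes tested. The reverse held for 6 genes, beside 15.1%. The heat map by library shows that most rows stay pale and that the darkest rows include ATP5F1, ATP5S, one ATP5E entry and genes of complex IV with few reads.

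**Figure D1:**
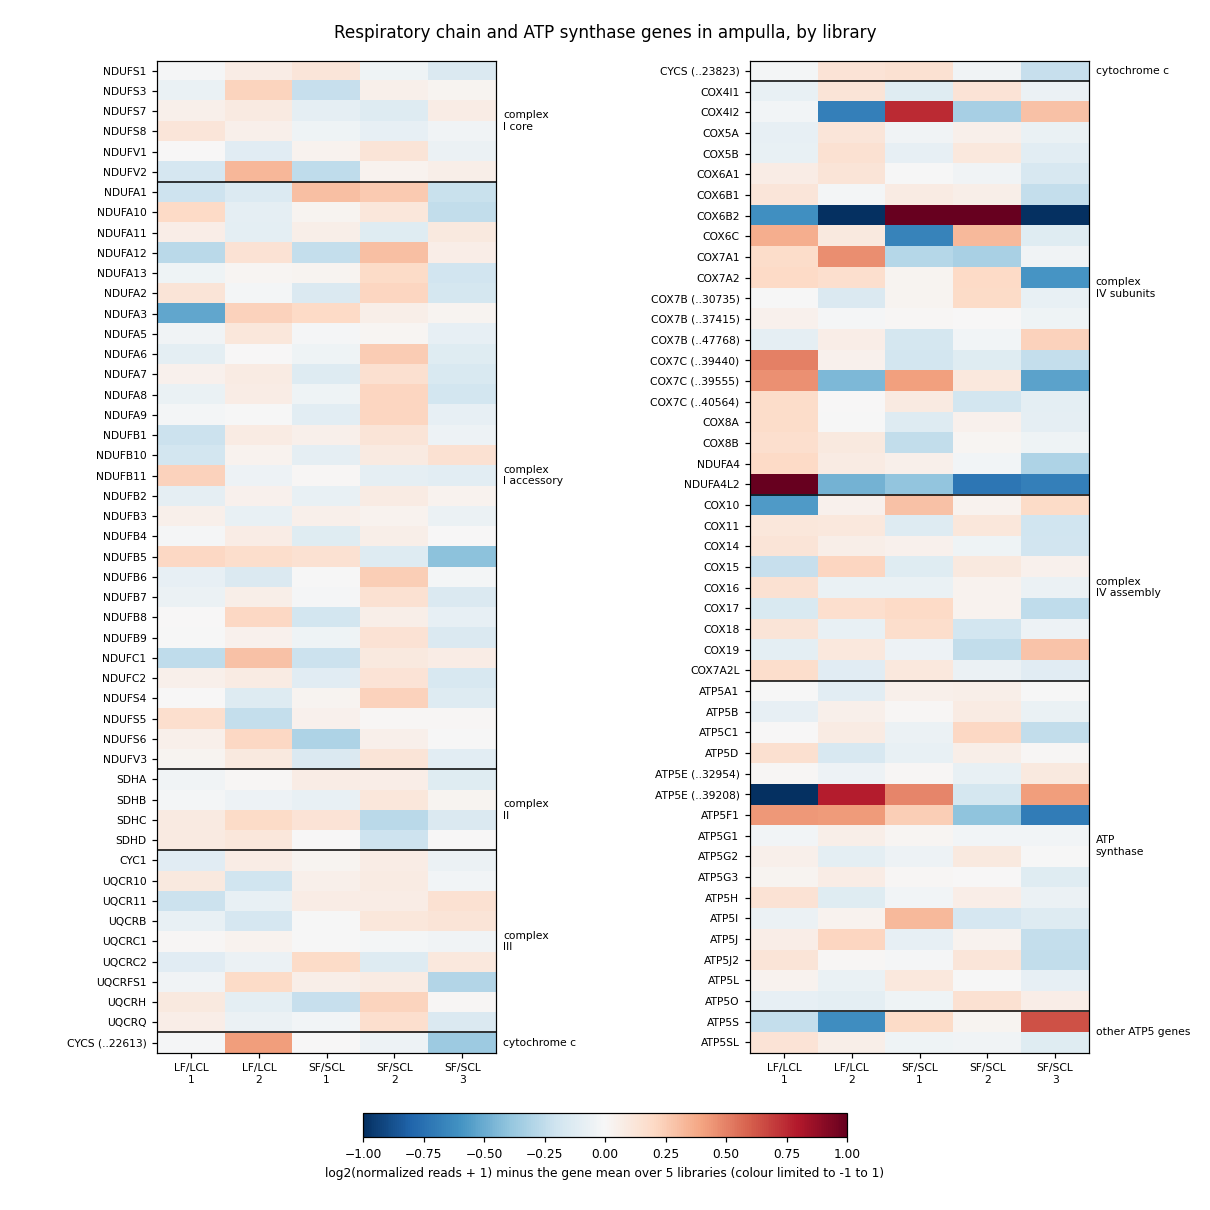
Each row is a nuclear gene that passed the mean of 5, grouped by complex, and each column is a library. Colour gives log2(normalized reads + 1) minus the mean of the gene over the 5 libraries, with values beyond 1 drawn at the limit. Most rows stay pale, and SF/SCL replicate 3 is blue more often than the other libraries.

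Complex I, the NADH dehydrogenase, was measured through 7 nuclear core subunits, which carry the flavin and the iron-sulfur clusters, and 29 accessory subunits. No subunit of either kind had an unadjusted p under 0.05. Among the core subunits, 6 of 7 were higher in LF/LCL by sign, with a median log2 fold change of 0.12. NDUFS1, the largest iron-sulfur subunit and the core gene with the most reads, had 2215 and 2361 normalized reads in LF/LCL against 2440.2, 2171 and 2027 in SF/SCL. These values interleave, and the log2 fold change was 0.05 ± 0.12 (adjusted p = 0.908). NDUFS8, another iron-sulfur subunit, had the smallest p of the core set, with 597 and 569 normalized reads in LF/LCL against 533, 518 and 536 in SF/SCL. Both LF/LCL values exceeded the SF/SCL values, by a log2 fold change of 0.14 ± 0.11 (95% interval -0.13 to 0.41, adjusted p = 0.69). NDUFS7, which carries the last cluster before ubiquinone, was at 510.2 and 525 against 463, 452 and 519, with SF/SCL replicate 3 inside the LF/LCL range.

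The 29 accessory subunits of complex I stabilize the complex around its core. Their median log2 fold change was 0.00044, with 15 higher in LF/LCL and 14 lower, and the fold changes ran from -0.28 (NDUFA1) to 0.32 (NDUFB5). NDUFB5, a membrane arm subunit, had 949 and 928 normalized reads in LF/LCL against 911, 753 and 619 in SF/SCL. The LF/LCL values were above those of SF/SCL, but SF/SCL replicate 1 came close to them, and the log2 fold change was 0.32 ± 0.18 (adjusted p = 0.546). NDUFS6, a zinc-binding subunit, was at 629.8 and 704 against 493, 632 and 608, so that SF/SCL replicate 2 overlapped LF/LCL. NDUFB10, the accessory subunit with the most reads, was at 1254 and 1463 against 1337, 1515 and 1587. Its groups overlap and its log2 fold change was -0.12 ± 0.13. The other accessory genes (NDUFA1 to NDUFA3, NDUFA5 to NDUFA13, NDUFB1 to NDUFB4, NDUFB6 to NDUFB9, NDUFB11, NDUFC1, NDUFC2, NDUFS4, NDUFS5 and NDUFV3) all had an unadjusted p of at least 0.221. Of these, NDUFB6 was the only gene whose SF/SCL values all exceeded those of LF/LCL.

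Complex II, succinate dehydrogenase, joins the citric acid cycle to the chain and has all its subunits encoded in the nucleus. The catalytic flavoprotein SDHA had 3432 and 3548 normalized reads in LF/LCL against 3717, 3697 and 3245 in SF/SCL, with the LF/LCL values inside the SF/SCL range. The membrane anchors SDHC and SDHD had the smallest p values of the complex. SDHC was at 1152 and 1235 against 1188, 895 and 976, where SF/SCL replicate 1 fell between the LF/LCL values (log2 fold change 0.24 ± 0.15, adjusted p = 0.588). SDHD was at 1268 and 1288 against 1194, 1034 and 1197, without overlap, and differed by 0.17 ± 0.11 on the log2 scale (adjusted p = 0.618). SDHB, the iron-sulfur subunit, had a log2 fold change of -0.06 ± 0.10. The intervals of all 4 genes included 0.

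Complex III, the cytochrome bc1 complex, takes electrons from ubiquinol to cytochrome c. Of its 9 genes (UQCRC1, UQCRC2, UQCRFS1, UQCRB, UQCRH, UQCRQ, UQCR10, UQCR11 and CYC1), 3 were higher in LF/LCL by sign and 6 lower, with a median log2 fold change of -0.037. UQCR11, the smallest subunit, had 439 and 483 normalized reads in LF/LCL against 535, 536 and 567 in SF/SCL. The SF/SCL values were all higher, by a log2 difference of -0.25 ± 0.12 (95% interval -0.54 to 0.05, adjusted p = 0.498). UQCRB, a ubiquinone-binding subunit, followed with 332 and 311 against 347, 377 and 381, again with higher values in all SF/SCL libraries (adjusted p = 0.64). UQCRC1, a large core protein on the matrix side and the gene with the most reads, spanned only 2613 to 2743 over the 5 libraries. Its LF/LCL values were above those of SF/SCL by 0.04 ± 0.09 on the log2 scale (95% interval -0.18 to 0.26). The intervals of all 9 genes lay within 1.5-fold.

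Cytochrome c, the carrier between complexes III and IV, is listed under CYCS for 2 Ensembl genes. The entry ENSBTAG00000022613 had 262 and 354 normalized reads in LF/LCL against 265, 256 and 205 in SF/SCL, with LF/LCL replicate 2 highest and SF/SCL replicate 3 lowest. The entry ENSBTAG00000023823 had 143 and 159.7 normalized reads in LF/LCL against 161, 141 and 123 in SF/SCL. Neither separated the groups, with log2 fold changes of 0.34 ± 0.21 (adjusted p = 0.593) and 0.10 ± 0.22 (adjusted p = 0.909).

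Complex IV, cytochrome c oxidase, reduces oxygen to water and includes several subunits with more than one isoform. It was represented by 21 nuclear entries, of which 20 passed the mean of 5. By sign 16 of the 20 were higher in LF/LCL, and the median log2 fold change was 0.12. Its summed normalized reads were 13813 and 13525 in LF/LCL against 12881, 13376 and 11828 in SF/SCL. The sums did not overlap, but SF/SCL replicate 2 lay close to LF/LCL, and the group means differed by less than the range within SF/SCL. As shares of all reads the groups did overlap. The shares were 0.08778% and 0.08640% in LF/LCL, and SF/SCL replicate 2 was the highest library at 0.08785%. COX6B1, which faces the intermembrane space and had the most reads of the complex, was at 2608 and 2369 against 2534, 2501 and 2034. Only SF/SCL replicate 3 stood below the others, and the log2 fold change was 0.08 ± 0.13 (adjusted p = 0.859).

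COX7A1 (ENSBTAG00000014878), the isoform of subunit VIIa known from heart and skeletal muscle, had 271 and 330.1 normalized reads in LF/LCL against 195, 190.4 and 233 in SF/SCL. Both LF/LCL libraries were above all SF/SCL libraries. The group means were 300.5 ± 41.8 (SD, n = 2) and 206 ± 23.2 (SD, n = 3), with a log2 fold change of 0.54 ± 0.19 (95% interval 0.08 to 1.00, adjusted p = 0.376). The unadjusted p of 0.0281 rose to 0.168 without LF/LCL replicate 2, to 0.0741 without SF/SCL replicate 1 and to 0.073 without SF/SCL replicate 2. The ubiquitous isoform COX7A2 was at 114 and 111 against 100.8, 114 and 65.5, with SF/SCL replicate 3 far below the rest, and did not separate the groups (log2 fold change 0.30 ± 0.32, adjusted p = 0.769). Relative to COX7A2, COX7A1 stood at ratios of 2.38 and 2.97 in LF/LCL against 1.94, 1.67 and 3.56 in SF/SCL, which overlap.

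Muscle markers were higher in LF/LCL in these full-thickness samples. Of 12 smooth muscle markers tested, 12 were higher in LF/LCL by sign and 9 had an unadjusted p under 0.05. Their summed normalized reads were 128925 and 66783 in LF/LCL against 42255, 44526 and 17974 in SF/SCL, and ACTG2 was not analysed here. Among 7 striated muscle markers tested, 6 were higher in LF/LCL, MYL1 was listed at 0, and the sums ran from 2973 to 4941 in LF/LCL against 511 to 1679 in SF/SCL. SF/SCL replicate 3 had the lowest sum of both lists and the highest COX7A1 value of its group. The part of the muscle markers in the COX7A1 values was not tested, and in bulk tissue fewer cells of a type and less RNA per cell cannot be told apart.

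The other isoform genes of complex IV showed no group difference past the test. COX8B, the muscle isoform of subunit VIII, had 428 and 407 normalized reads in LF/LCL against 320.2, 386 and 370.2 in SF/SCL, without overlap but with a log2 fold change of only 0.22 ± 0.15 (adjusted p = 0.616). The ubiquitous COX8A was at 1024 and 896 against 821, 929 and 846, and the ratio of COX8B to COX8A stayed between 0.390 and 0.454 in all libraries. COX4I1, the common isoform of subunit IV, was at 1434 and 1647 against 1386, 1656 and 1449 and overlapped (log2 fold change 0.04 ± 0.12). COX4I2, the isoform known from lung and from low oxygen, had low values of 28.1 and 17.4 normalized reads in LF/LCL against 48.9, 22.5 and 35.4 in SF/SCL. The spread within SF/SCL covered the difference between groups (log2 fold change -0.59 ± 0.49, adjusted p = 0.701). COX6A1, the ubiquitous form of subunit VIa, had 1489 and 1549.7 normalized reads in LF/LCL against 1416, 1381 and 1265 in SF/SCL, with both LF/LCL values above SF/SCL by 0.17 ± 0.10 on the log2 scale (adjusted p = 0.582). The muscle form COX6A2 had a single read, in LF/LCL replicate 1, and was 0 elsewhere, so it was not tested.

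The widest intervals in complex IV belonged to genes with few reads, not to NDUFA4. That gene, first assigned to complex I and now counted with complex IV, was at 1072 and 985 against 964, 912 and 753, without overlap (log2 fold change 0.24 ± 0.14, adjusted p = 0.573). Its paralogue NDUFA4L2, a gene known to respond to hypoxia, had 31.7 and 3.87 normalized reads in LF/LCL against 4.16, 3.11 and 3.22 in SF/SCL. A single library, LF/LCL replicate 1, gave the whole difference, and the log2 fold change of 1.496 ± 0.948 had an interval of -0.81 to 3.80 (adjusted p = 0.599). COX6B2, a form of subunit VIb known from testis, had 3.52 and 1.94 normalized reads in LF/LCL against 14.6, 23.3 and 2.15 in SF/SCL. SF/SCL replicates 1 and 2 were high while SF/SCL replicate 3 lay with LF/LCL, and the log2 fold change was -1.54 ± 1.03 (95% interval -4.04 to 0.96). COX5A, COX5B and COX6C, which have no second isoform here, had log2 fold changes of 0.04 ± 0.11, 0.06 ± 0.13 and 0.38 ± 0.31.

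**Figure D2:**
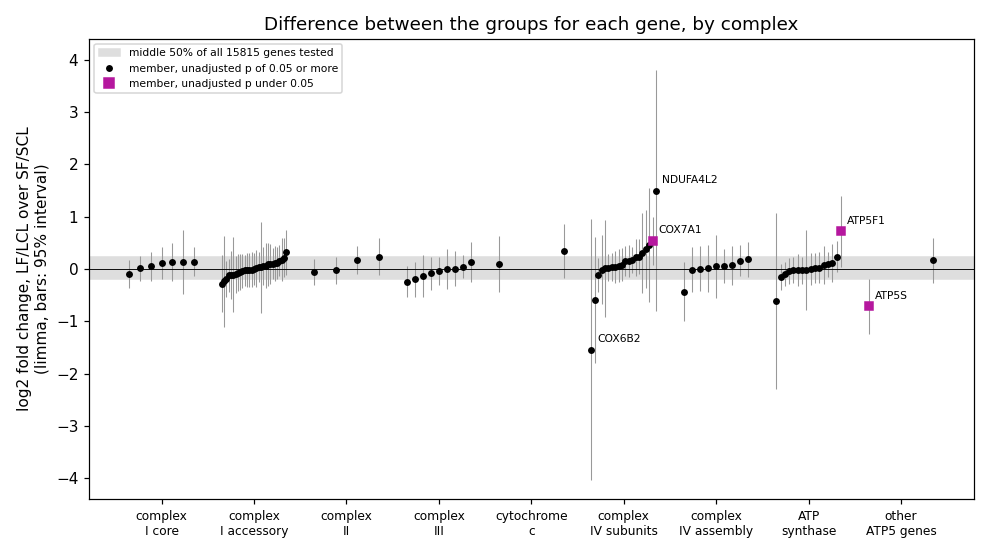
Log2 fold change of LF/LCL over SF/SCL for each of the 98 genes, by complex, with 95% intervals from limma and the interquartile range of all genes tested as a grey band. Most points lie in the band, the 3 squares are ATP5F1, COX7A1 and ATP5S, and the widest intervals belong to COX6B2 and NDUFA4L2.

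Genes that serve the assembly of complex IV, or of larger complexes, numbered 9 (COX10, COX11, COX14 to COX19 and COX7A2L), and none had an unadjusted p under 0.05. COX10, the farnesyltransferase that makes haem O, had 165 and 253 normalized reads in LF/LCL against 300.5, 250.2 and 280.1 in SF/SCL. LF/LCL replicate 1 was the lowest library, whereas LF/LCL replicate 2 lay among the SF/SCL values, and the log2 fold change was -0.43 ± 0.23 (95% interval -0.99 to 0.13, adjusted p = 0.53). Without LF/LCL replicate 2 its unadjusted p, like those of NDUFA4L2 and of the ATP5E entry with few reads, fell under 0.05. COX11, a copper chaperone, was at 562 and 560.4 against 476, 561 and 452, with SF/SCL replicate 2 between the LF/LCL values (log2 fold change 0.18 ± 0.14). COX7A2L, a factor of supercomplex assembly, had the most reads of these genes and was at 2580.1 and 2115 against 2457, 2188 and 2109.9, with overlap. Outside the symbol rule, 30 of 40 listed assembly factors of complexes I to V were tested. By sign 11 were higher in LF/LCL and 19 lower, with a median log2 fold change of -0.058, and 1 had an unadjusted p under 0.05.

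That factor was SCO2, a copper chaperone that acts in the maturation of complex IV. SCO2 had 1323 and 919.5 normalized reads in LF/LCL against 2285, 1674 and 2628 in SF/SCL, with every SF/SCL library above both LF/LCL libraries. The log2 fold change was -0.97 ± 0.24 (adjusted p = 0.298 with limma). With DESeq2 the adjusted p was 0.0179, and over all alternatives it ran from 0.0179 to 0.498. Among the 98 genes and these assembly factors, SCO2 and ATP5S had the smallest p values, both with higher values in SF/SCL and both highest in SF/SCL replicate 3.

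ATP synthase was represented by 16 entries of the catalytic head, the stalks and the membrane rotor. The median log2 fold change was -0.0091, with 8 higher in LF/LCL and 8 lower by sign, and 13 of the 16 intervals lay within 1.5-fold. ATP5B, the catalytic beta subunit and the gene with the most reads of all 107, had 7655 and 8407 normalized reads in LF/LCL against 8149, 8591 and 7742 in SF/SCL. The ranges of the groups overlap, and the log2 fold change was -0.02 ± 0.11 (95% interval -0.28 to 0.23). The alpha subunit ATP5A1, gamma ATP5C1, delta ATP5D and the remaining genes ATP5H, ATP5I, ATP5J2, ATP5L and ATP5O had log2 fold changes between -0.15 (ATP5O) and 0.11 (ATP5J2).

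ATP5F1 (ENSBTAG00000006441), the b subunit of the peripheral stalk that holds the head still, departed most from the other ATP synthase genes with high counts. It had 2379.6 and 2359 normalized reads in LF/LCL against 2089, 1327 and 1081 in SF/SCL. The LF/LCL libraries nearly coincided, SF/SCL replicate 1 lay just below them, and SF/SCL replicates 2 and 3 were clearly lower. The means were 2369 ± 14.6 (SD, n = 2) and 1499 ± 526 (SD, n = 3), with a log2 fold change of 0.72 ± 0.27 (95% interval 0.05 to 1.39, adjusted p = 0.414). The unadjusted p of 0.0398 became 0.00101 without SF/SCL replicate 1 and lay between 0.0776 and 0.118 without any one of the other libraries. The ratio of ATP5F1 to ATP5A1, the alpha subunit, was 0.799 and 0.850 in LF/LCL against 0.676, 0.425 and 0.362 in SF/SCL. The lowest ratios were those of SF/SCL replicates 2 and 3.

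ATP5J, coupling factor 6 of the same peripheral stalk, had 1693 and 1875 normalized reads in LF/LCL against 1527, 1662 and 1374 in SF/SCL. Both LF/LCL values were higher, SF/SCL replicate 2 was close to them, and the log2 fold change was 0.23 ± 0.12 (adjusted p = 0.521). The membrane rotor subunit c is encoded by ATP5G1, ATP5G2 and ATP5G3, whose mature proteins are the same. ATP5G1 ranged over 416 to 441, ATP5G2 over 1681 to 1917 and ATP5G3 over 1918 to 2200.1 in the 5 libraries. None of the 3 separated the groups past the test, with log2 fold changes of 0.02 ± 0.12, -0.03 ± 0.10 and 0.09 ± 0.10, and the ratio of ATP5G1 to ATP5G3 stayed between 0.195 and 0.217.

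ATP5S (ENSBTAG00000015202), also known as coupling factor B, is not a fixed part of the enzyme. It had 644 and 496 normalized reads in LF/LCL against 869, 778 and 1186 in SF/SCL. Each SF/SCL library was above both LF/LCL libraries, and SF/SCL replicate 3 was the highest. The means were 569.7 ± 105 (SD, n = 2) and 944 ± 214 (SD, n = 3), and the log2 fold change of -0.72 ± 0.22 (95% interval -1.24 to -0.19) had the smallest p of the 98 genes (adjusted p = 0.333). The unadjusted p of 0.0155 became 0.101 without LF/LCL replicate 2 and at most 0.0311 without any other library. ATP5SL, a related gene, had 203 and 192 normalized reads in LF/LCL against 179, 180.3 and 169.6 in SF/SCL, slightly higher in LF/LCL (log2 fold change 0.16 ± 0.18, adjusted p = 0.78). ATP5S and ATP5SL thus differed in sign.

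**Figure D3:**
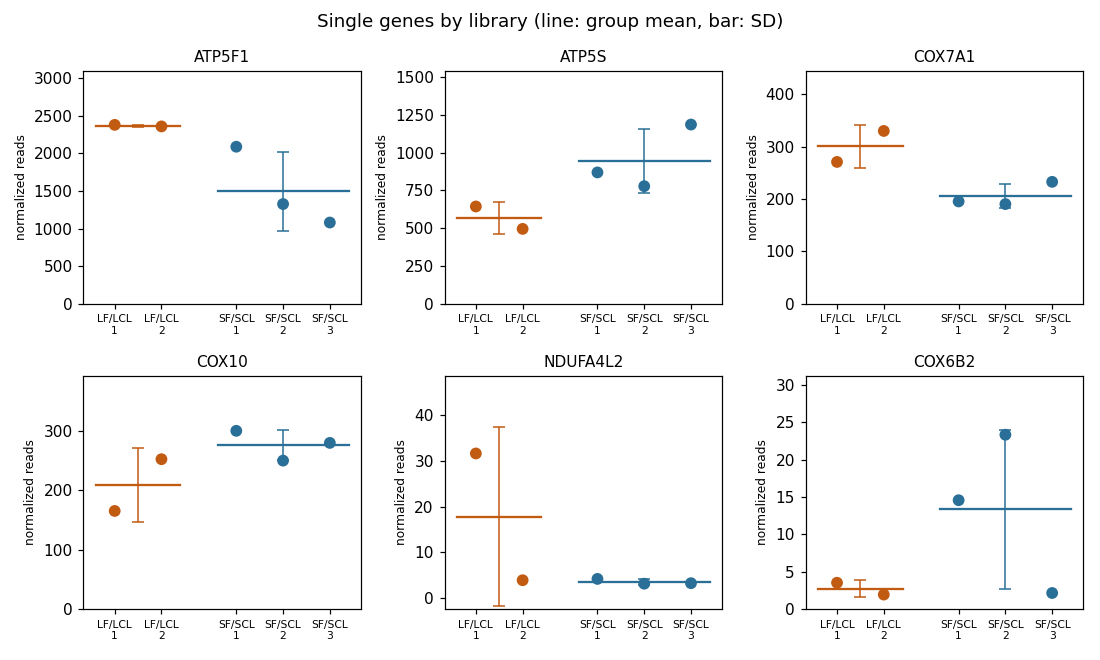
Normalized reads of ATP5F1, ATP5S, COX7A1, COX10, NDUFA4L2 and COX6B2 in each library, with lines at the group means and bars of 1 SD (n = 2 in LF/LCL and n = 3 in SF/SCL). ATP5F1, ATP5S and COX7A1 separate the groups, while the NDUFA4L2 difference comes from LF/LCL replicate 1 alone.

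The symbols ATP5E, COX7B, COX7C and CYCS each stand for several entries, 10 in all. Only uniquely mapped reads were counted, so near-identical copies may split or lose reads and these values are uncertain. For ATP5E, the epsilon subunit, ENSBTAG00000032954 had 1807 and 1732 normalized reads in LF/LCL against 1802, 1695 and 1918 in SF/SCL, with no separation of the groups. The entry ENSBTAG00000039208 had 25.8 and 131 normalized reads in LF/LCL against 106, 66.8 and 100.9 in SF/SCL, where LF/LCL replicate 1 was the lowest and LF/LCL replicate 2 the highest library. For COX7B the 3 entries ranged over 537 to 678 (ENSBTAG00000030735), 677 to 720.1 (ENSBTAG00000037415) and 74.9 to 99.8 (ENSBTAG00000047768). For COX7C they ranged over 929 to 1196 (ENSBTAG00000040564), 164 to 327 (ENSBTAG00000039555) and 15.0 to 25.8 (ENSBTAG00000039440). Of the 8 ATP5E, COX7B and COX7C entries only the last separated the groups, with 25.8 and 18.4 against 15.6, 16.3 and 15.0 and a log2 fold change of 0.45 ± 0.45 (adjusted p = 0.752).

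It is not known whether reads were counted by strand, so genes that overlap a neighbour are also uncertain. In RefSeq's table of the Tharparkar assembly, an assembly other than the one used for counting, 92 of the 101 symbols were found, 17 of them by their current name. Of these, 16 overlap another gene, among them ATP5J with GABPA, COX14 with CERS5, NDUFB9 with TATDN1 and NDUFA2 with TMCO6. ATP5F1, ATP5S, COX7A1 and SCO2 had no overlapping gene there.

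The 8 genes of the mitochondrial genome that matched the rule were ND1, ND2, ND4L, ND5, ND6, COX1, COX3 and ATP8, which encode core subunits of complexes I and IV and of ATP synthase. All 8 are listed at 0 in all 5 libraries. A further 5 genes of this genome carry the names MT-CYB, MT-CO2, MT-ND3, MT-ND4 and MT-ATP6, fall outside the rule, and are listed at 0 as well. These genes are used by every cell with mitochondria, and the zeros give no level for them. The balance of mitochondrial and nuclear subunits could not be measured, and no mitochondrial value enters any sum or median.

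The summed level of the genes varied more between the SF/SCL libraries than between the group means. The share of all reads taken by the 98 genes together was 0.615% and 0.620% in LF/LCL against 0.620%, 0.647% and 0.588% in SF/SCL. The means were 0.617% ± 0.0038 (SD, n = 2) and 0.618% ± 0.0296 (SD, n = 3). SF/SCL replicate 3 was the lowest library for 41 of the 98 genes (41.8%), beside 24.3% of all genes tested, and the highest for 8. SF/SCL replicate 2 was the highest library for 29. The median over structural subunits of log2 values centred on the gene mean was 0.0032 and 0.043 in LF/LCL against -0.00087, 0.06 and -0.076 in SF/SCL. Without the 10 entries that share a symbol it was 0.0032 and 0.049 in LF/LCL against -0.008, 0.069 and -0.076 in SF/SCL. Both extremes of the 5 libraries thus fell in SF/SCL.

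By complex, SF/SCL replicate 3 had the lowest sum for complex I core (7242 and 7632 in LF/LCL against 7383, 7367 and 6970.4 in SF/SCL), complex I accessory subunits, complex II, complex III, cytochrome c, complex IV and ATP synthase (30876 and 30867 in LF/LCL against 30385, 31356 and 28407 in SF/SCL). As a share of all reads, however, complex III was lowest in LF/LCL replicate 1, at 0.06166% against 0.0618% in SF/SCL replicate 3. SF/SCL replicate 2 had the highest sum for complex I accessory subunits, complex III and ATP synthase, but not for complex I core, complex II, cytochrome c or complex IV.

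The supply side of the chain was read from lists of other mitochondrial genes. Of 17 tested genes of pyruvate dehydrogenase and the citric acid cycle, 11 were higher in LF/LCL by sign, with a median log2 fold change of 0.040, and 4 had an unadjusted p under 0.05, 3 of them higher in LF/LCL and 1 lower. CS, citrate synthase, the first enzyme of the cycle, had the smallest p, with 899.5 and 900.2 normalized reads in LF/LCL against 727, 756 and 694 in SF/SCL. Both LF/LCL values were higher, and the log2 fold change was 0.31 ± 0.10 (adjusted p = 0.365). Carriers, channels and other electron entry enzymes had 13 genes tested and a median of 0.0026, and 0 of them had an unadjusted p under 0.05. GPD2, the mitochondrial glycerol-3-phosphate dehydrogenase, had the smallest p, with 218 and 217 normalized reads in LF/LCL against 288, 265 and 259.7 in SF/SCL.

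Genes of mitochondrial biogenesis and genome maintenance had 15 members tested, 5 higher in LF/LCL and 10 lower by sign, a median of -0.067 and 0 with an unadjusted p under 0.05. POLRMT, the mitochondrial RNA polymerase, had the smallest p, with 401 and 479 normalized reads in LF/LCL against 509, 501 and 568 in SF/SCL (adjusted p = 0.544). Cristae and protein import had 17 tested, a median of 0.065 and 0 with an unadjusted p under 0.05, and CHCHD3, a cristae junction protein, came first (log2 fold change -0.23 ± 0.12). Of 76 mitochondrial ribosomal protein entries, 36 were higher in LF/LCL and 40 lower, the median was -0.0058, and 1, MRPL17, had an unadjusted p under 0.05 (log2 fold change 0.25 ± 0.10, adjusted p = 0.427). The median SD over the 5 libraries was 0.135 for these ribosomal proteins and 0.134 for the citric acid cycle genes, beside 0.138 for the subunits.

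**Figure D4:**
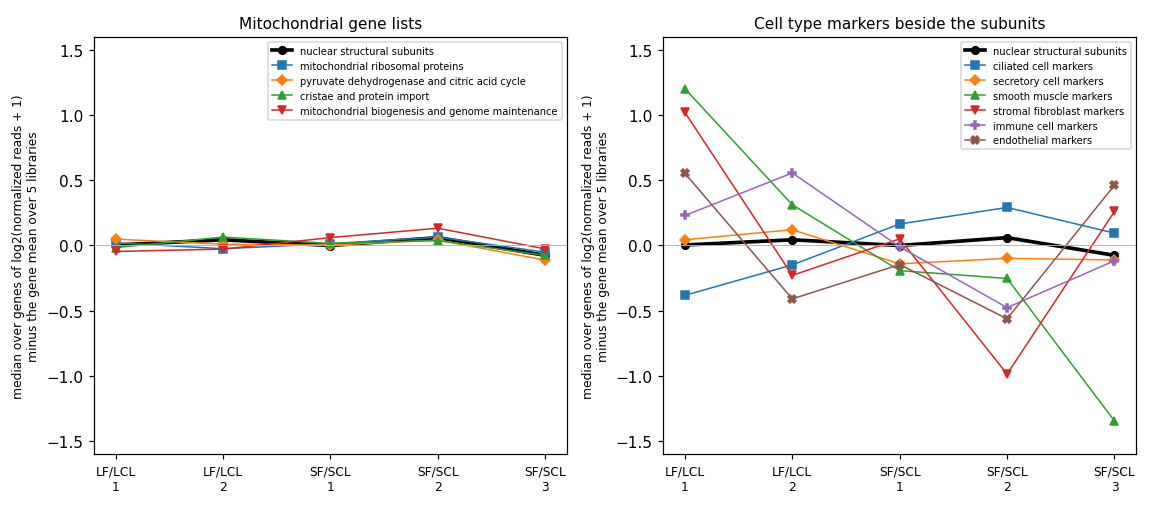
Median over the genes of a list of log2(normalized reads + 1) minus the gene mean, by library, for mitochondrial lists (left) and for cell type markers beside the structural subunits in black (right), on 1 scale. The mitochondrial lists stay between -0.11 and 0.13, while smooth muscle markers run from 1.20 in LF/LCL replicate 1 to -1.35 in SF/SCL replicate 3.

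Several cell type marker lists had larger median fold changes than the subunits. All 21 ciliated cell markers tested were higher in SF/SCL by sign and 14 had an unadjusted p under 0.05, with a median log2 fold change of -0.45 and sums of 79464 and 98323 in LF/LCL against 118931, 122305 and 115963 in SF/SCL. HYDIN was not analysed here. The smooth muscle markers, with the sums given above, had a median of 1.37. Secretory cell markers had 8 tested, 4 in each direction by sign, with an unadjusted p under 0.05 for 4 higher in LF/LCL and 1 lower, and sums from 147557 to 167599 in LF/LCL against 142413 to 167549 in SF/SCL. The markers of the ampulla epithelium were thus present in every library.

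Among the remaining lists, 13 immune markers were tested and 11 were higher in LF/LCL by sign, 5 of them with an unadjusted p under 0.05, with sums of 7051 and 9245 in LF/LCL against 4440 to 7308 in SF/SCL. Of 10 stromal fibroblast markers 9 were higher in LF/LCL, with 0 under 0.05 and sums from 38829 to 89525 in LF/LCL against 24109 to 49576 in SF/SCL. Of 8 endothelial markers 5 were higher in LF/LCL by sign and 3 lower, with a median log2 fold change of 0.19. Only KDR, higher in SF/SCL, had an unadjusted p under 0.05. Endothelial sums ran from 5000 to 7939 in LF/LCL against 5955 to 8654 in SF/SCL. The 4 mesothelial markers had sums from 9299 to 17041 in LF/LCL against 15079 to 20517 in SF/SCL. Red blood cell markers (2 tested) summed to 504 and 65.8 in LF/LCL against 16.1 to 234 in SF/SCL, with ALAS2 at 0, and no adipocyte marker reached the mean of 5. The summed subunits, at 89464 and 90017 in LF/LCL against 87824, 91453 and 82520.5 in SF/SCL, overlapped between the groups. The part of tissue make-up in the single subunit values was not tested.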

How the data were processed

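Total RNA of 5 ampulla samples was made into polyA TruSeq libraries and sequenced as read pairs. Per the study's methods and the submitters' processing notes, the authors used CASAVA 1.8.2, trimmed with seqyClean, aligned to the masked UMD cattle assembly with TopHat2 2.0.8 and Bowtie2 2.1.0, sorted with SAMtools 0.1.18, and counted uniquely mapped reads per Ensembl gene with HTSeq 0.5.4p2. The deposited values are a normalized signal, the read count divided by a DESeq 1.12.1 size factor per library. Dividing by the smallest step between values gave whole reads (tolerance 0.0011) for 100% of nonzero values in each library, and these reads served edgeR and DESeq2 only as alternatives.

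The main test was limma 3.58.1 (trend and robust, R 4.3.3) on log2(value + 1) for 15815 genes with a mean over 5, two-sided, with Benjamini-Hochberg adjustment and no covariate. The scale understates changes of genes with few reads. Alternatives were edgeR 4.0.16 (quasi-likelihood, TMM), DESeq2 1.42.0, TMM scaling, pseudocounts of 0.5 and 5, 2 filters, and omission of each library. The limma, edgeR and DESeq2 fits with all 5 libraries were also run on simulated data, and the other alternatives were not. Only the limma estimate of the larger planted changes had to meet a limit there. The shares of planted changes that each tool called are not given here. Replicates were numbered in accession order and pair nothing.

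The genes and lists were chosen with earlier results of these data known. Values are given for the gene with the highest mean and the 2 with the smallest p of each class, for isoform sets, for shared symbols and genes at 0, and for the gene with the smallest p of each pathway list. Other genes are given by range or count, and KDR, SDHB, NDUFB6, ATP5A1, COX5A, COX5B, COX6C and genes named at the end of a range were added after their values were seen. No transcript lengths or sequences were used. One gene is not reported here by name and is left out of the heat map.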

Additional observations from a re-analysis of the deposited data

How the results depend on the processing

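Of the 526 alternative values of the 44 named genes with a fold change, 505 kept their direction and their side of the adjusted threshold. No tool, scaling, pseudocount or filter reversed any of them. As no gene of the 44 passed the adjusted threshold, keeping the side was no test of stability. SCO2 is not among the 44, and its adjusted p was 0.298 with limma and 0.0179 with DESeq2. Of the genes chosen by symbol, 0 had an adjusted p under 0.05 with edgeR, DESeq2, TMM scaling, either pseudocount or either filter. The same held without any 1 SF/SCL library. Leaving out an LF/LCL library left that group with only 1, so adjusted calls are not given for that case. Under the 12 alternatives the median log2 fold change over nuclear subunits, 0.025, ran from 0.004 (without SF/SCL replicate 3) to 0.078 (without SF/SCL replicate 2). It was 0.056 without LF/LCL replicate 1. The count with an unadjusted p under 0.05 was 3, and 1 to 4 when a library was left out. Without LF/LCL replicate 2 it was again 3, but these were ATP5E (ENSBTAG00000039208), COX10 and NDUFA4L2, in place of ATP5F1, ATP5S and COX7A1. With LF/LCL higher it was 2, with edgeR 1, and 0 to 3 with a library left out; with SF/SCL higher it was 1, and 1 to 2. Intervals within 1.5-fold numbered 73, and 47 to 67 (47 without either LF/LCL library). Genes without overlap numbered 14 with LF/LCL higher (15 to 32 with a library left out) and 6 with SF/SCL higher (8 to 19), where fewer libraries make separation easier. For any count with a library left out, the share over all genes tested was not counted. Such counts therefore cannot be set against a background. The sign of 13 fold changes, that of ATP5E (ENSBTAG00000039208) being -0.61 with all libraries and the others under 0.1 in size, turned only when a library was left out, and over these omissions the log2 fold change ran from -0.091 to 0.044 for ATP5B, -0.071 to 0.018 for ATP5E (ENSBTAG00000032954), -1.75 to 0.54 for ATP5E (ENSBTAG00000039208), -0.017 to 0.067 for ATP5G1, -0.11 to 0.04 for ATP5G2, -0.057 to 0.14 for COX4I1, -0.018 to 0.15 for COX6B1, -0.087 to 0.20 for COX7A2L, -0.006 to 0.054 for COX7B (ENSBTAG00000037415), -0.11 to 0.094 for COX7B (ENSBTAG00000047768), -0.44 to 0.46 for COX7C (ENSBTAG00000039555), -0.009 to 0.12 for NDUFS1 and -0.087 to 0.011 for SDHA. These 13 are among the 44 genes counted above. COX5A and COX5B, added later, are not counted, and their signs also turned without LF/LCL replicate 2. LF/LCL replicate 1 then stood at 1181 for COX5A, against 1193 to 1297 in SF/SCL. For COX5B it stood at 854, against 837 to 971 in SF/SCL. The cause of these turns was not tested. A lone LF/LCL library was assumed to vary like SF/SCL. The intervals, counting error included, limit genes with few reads most. No paired analysis was possible because the labels give the libraries no replicate number shared between the groups. The median of the mitochondrial genome genes had no value under any setting, as all are listed at 0. The settings for the intervals, the lowest library and the spread were chosen after the data were seen.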
